A study of Mus musculus and blank sample with 191 samples.

Results

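The comparison was between the uterine epithelium of Thra1PV/+ mice and that of wild-type (WT) controls, measured in captured tissue regions on the first of 2 collection plates. Regions were taken when their label named the epithelium and their library lay on the first plate, which gave 60 of the 189 regions in the table. Of these, 31 regions came from 6 heterozygous mice labelled PV/N (PV1 to PV6) and 29 regions from 8 mice labelled N/N (WT1 to WT8). The PV allele encodes a frame-shifted thyroid hormone receptor alpha 1 with dominant negative activity, carried as 1 copy beside a normal Thra allele in all cells. All were females, with ages of 2.4 to 6.3 in PV mice (median 4.1) and 4.0 to 9.0 in WT mice (median 5.85), in labels that give no unit and were read as months. No other treatment or allele was named, and the study's methods state that the mice were matched by estrous cycle. A pathologist outlined the regions on fixed sections by morphology and by staining for pan-cytokeratin and smooth muscle actin, and the labels do not separate luminal mucosa from glands. The labels name 14 animals, whereas the design text counts 13 sections, and the p-values below measure the spread between these animals.

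The uterine epithelium is a simple columnar layer that lines the lumen and dips into the stroma as glands. Estrogen drives it to divide and to secrete, and progesterone acts partly through Ihh sent from the epithelium to the stroma. Thyroid hormone acts through nuclear receptors, and a dominant negative receptor keeps co-repressors on target genes such as Klf9, a Kruppel-like transcription factor that is also a partner of the progesterone receptor. A squamous epithelium, by contrast, is layered and makes keratins and cornified envelope proteins that a columnar one lacks.

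The mouse was the replicate, since regions of 1 animal share its tissue. Counts were summed over the regions of each mouse, and PV1 alone gave 15 of the 31 PV regions, PV4 gave 8, and PV2 gave 1. The total was 61691 counts in PV2 and 754649 in PV5, against 884896 to 13492532 in the other PV mice and 1638481 to 8398111 in WT mice. Because the table holds 1 where no count was seen, 45.6% of the tested genes stood at 1 in the region of PV2, so that a low value there is only an upper bound. A count of 1 in PV2 came out as 3.86 on the log2 scale of counts scaled to library size (log2 CPM) used below. All 95 first-plate regions matched their labels by the epithelial markers Krt8 and Epcam against the fibroblast markers Dcn and Col1a1, whereas 36 of the 94 regions of the second plate did not, and that plate was not used here. The summed level of the 12 fibroblast markers was 455 to 1832 CPM in PV epithelium (median 1124) and 634 to 2319 CPM in WT epithelium (median 1418). In such captured regions, fewer cells of a type and less RNA per cell cannot be told apart.

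Across 14881 genes, no gene differed between PV and WT epithelium at an adjusted p under 0.05 in edgeR's quasi-likelihood test with Benjamini-Hochberg adjustment (0% of genes called). The lowest adjusted p was 0.116, shared by Tead2, Klk10, Sult1d1, Hyal1, Hp and Arg2. Without adjustment, 657 genes were higher in PV at p under 0.05 (4.42% of genes) and 566 lower (3.8%), a split that turned to 405 higher and 765 lower with upper-quartile scaling. Leaving out PV3 raised the sum of both directions to 2188 genes, and leaving out 1 mouse gave 1 adjusted call without PV1, 6 without PV6, 1 without WT3 and 6 without WT5. By sign alone, 49.4% of all genes were higher in PV. Counts of list members below, by sign or unadjusted p, stand beside that share and the 4.42% and 3.8% above. The median log2 fold change over all genes was -0.01, the median of its size was 0.17, and the median standard error was 0.21. Genes named below as higher or lower therefore carry their own values and did not pass the adjusted test unless another tool is named.

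DESeq2, run as an alternative on the same sums, called 28 genes at the same threshold. Of these 17 were higher in PV (0.142% of the 11972 genes with an adjusted p) and 11 lower (0.0919%). That count moved with the mice: it was 80 without PV2, 54 without PV6, 54 without WT3, 45 without PV1, 44 without WT5, 43 without PV4, 17 without PV5 and 16 without PV3. Klf9, Sult1d1, Hp, Arg2, Hyal1, Krt23, Tead2, Jchain and Igha were called with any of the 14 mice left out. In 10 genes every PV mouse lay above every WT mouse in log2 CPM (0.0672% of genes), and in 13 genes every PV mouse lay below (0.0874%). Without PV2 these counts were 22 and 30 and took in all of the former. They depended on the scale: on per-mouse means of log2 Q3 signal, 0 of the 10 and 3 of the 13 (Dcn, Chpf2 and Snapin) still had no overlap. Chpf2 and Snapin were chosen for mention after their values were seen. Among the 10 genes above, PV2 held 1 count for Klk10, 2 for Adap1 and Trim16, and 3 for Spag4 and Ubtd2. It held 4 for Mpzl2, Riox2 and Rrp15, 11 for Hdgfl3 and 19 for Snu13. Since a count of 1 in PV2 reads 3.86, its place above the WT mice can rest on few or no counts.

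The thyroid hormone genes came first. Thra, which encodes the receptor that carries the mutation, had log2 CPM values of 5.17 at the lowest, 5.64 at the median and 7.40 at the highest in PV mice, and of 5.07, 5.39 and 5.69 in WT mice. PV2 (12 counts) and PV5 lay above all WT mice, PV1 was level with the highest of them, and the other PV mice lay within the WT range. The difference of 0.62 ± 0.28 (log2, SE) had an adjusted p of 0.593 in edgeR, and it was 0.28 without PV5, 0.31 with age and 0.37 with the fibroblast level as a covariate. Which allele the Thra probe reads is unknown here, so its level does not check the genotype.

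Klf9 (chromosome 19, 23141226 to 23168134, plus strand, GRCm38) was the thyroid hormone target that stood furthest apart. Its log2 CPM was 3.73, 4.33 and 4.92 (lowest, median, highest) in the 6 PV mice and 5.07, 5.57 and 5.92 in the 8 WT mice. All PV mice lay below all WT mice, though PV2 held only the count of 1 that stands for none. The log2 fold change was -1.09 ± 0.21 (SE), or 2.13-fold lower, with an adjusted p of 0.12 in edgeR and of 0.00795 in DESeq2. The exact two-sided permutation test over all divisions of the 14 mice gave p = 0.000333, the smallest it can give, which became 0.31 after adjustment over all genes. Leaving out any mouse kept the value between -1.27 and -0.97. It was -1.25 ± 0.22 with age as a covariate, where edgeR gave an adjusted p of 0.0402, and -1.11 with the fibroblast level as a covariate.

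**Figure D1:**
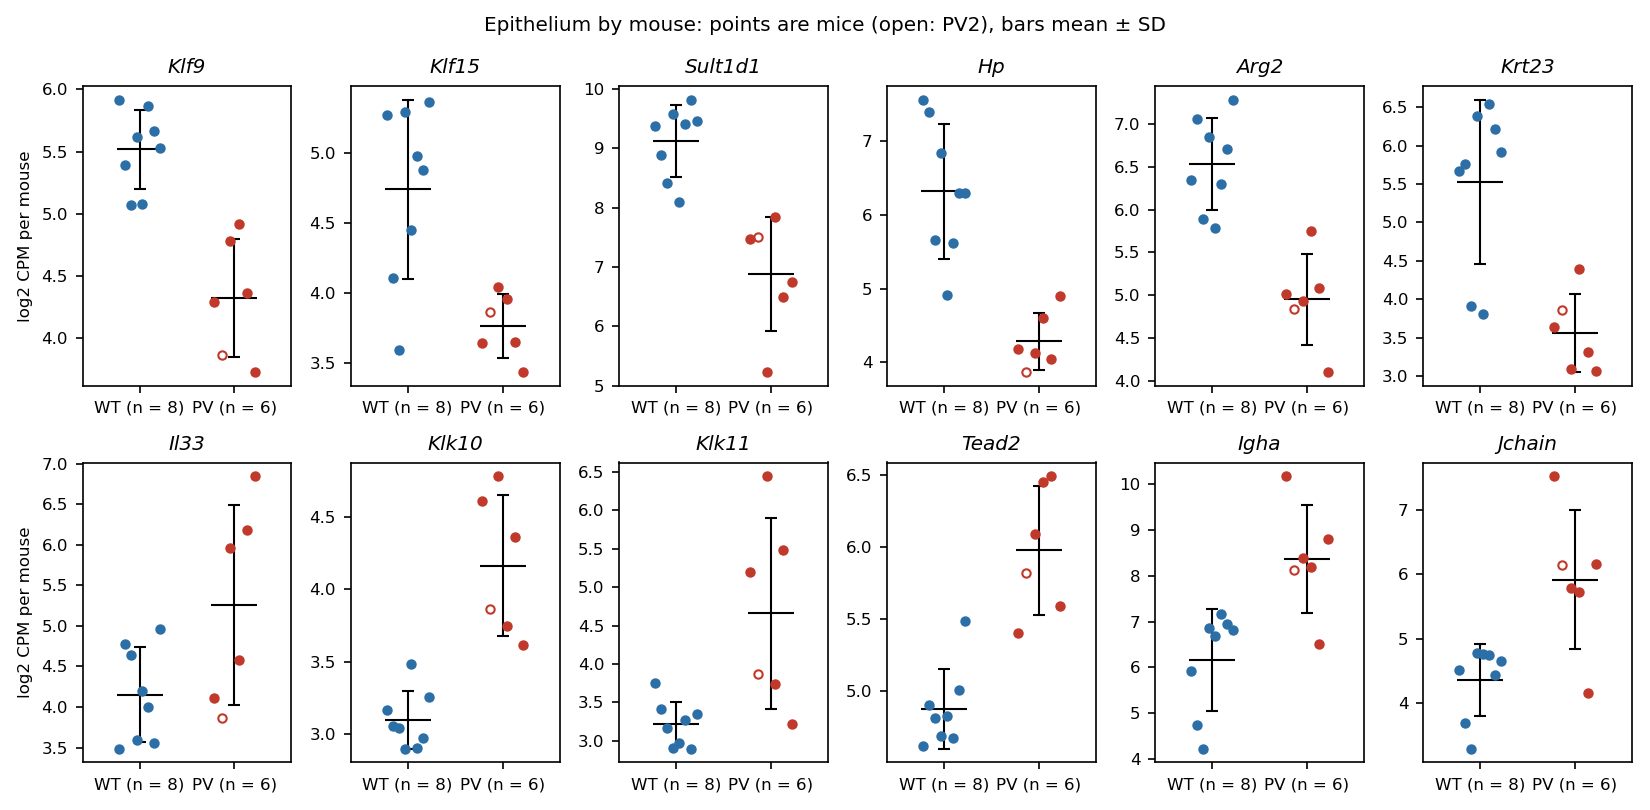
Log2 CPM per mouse for 12 genes in first-plate epithelium of WT (blue, n = 8) and PV (red, n = 6) mice, with mean ± SD as black bars and PV2, the mouse with 1 thin region, as an open circle. Klf9, Sult1d1, Hp and Arg2 show no overlap between groups, whereas for Il33 the WT mice span 3.49 to 4.96 and PV1, PV2 and PV4 lie inside that span.

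Of the 16 listed thyroid hormone targets, 15 were kept, with 7 higher and 8 lower in PV and a median log2 fold change of -0.11, beside -0.01 for all genes. Its sign was not stable, since the median ran from -0.18 without PV1 to 0.04 without PV5, with 3 to 9 members higher as single mice were left out. At an unadjusted p under 0.05, 1 was higher and 1 lower, beside 4.42% and 3.8% of all genes. The lower one was Klf9. The higher one was Bcl3, a regulator of NF-kappaB, at 1.22 ± 0.53 (log2, SE), which rested on PV1 (7.78 log2 CPM) and was -0.27 without that mouse. Thrsp, a lipogenic target in other organs, was at -0.96 ± 0.54, with WT mice spread from 3.78 to 7.55 log2 CPM, and at -0.43 with the fibroblast covariate. Of the 20 kept receptors, co-regulators and transporters, 9 were higher and 11 lower, with a median of -0.01.

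The Kruppel-like factors did not move as a block. Of 16 kept members 10 were higher and 6 lower (median 0.18, and 0.10 without PV1), 3 and 2 of them at an unadjusted p under 0.05. Klf15, a metabolic regulator, was next to Klf9 with -1.10 ± 0.28. Its log2 CPM was 3.43 to 4.04 in PV mice and 3.59 to 5.37 in WT mice, where WT3, the oldest mouse, lay within the PV range. In the fit with age as a covariate edgeR gave Klf15 an adjusted p of 0.0347 at a log2 fold change of -1.41. Klf6 was higher by 0.71 ± 0.21, above the WT median in 6 of 6 PV mice. Klf4, which marks differentiating barrier epithelia, was higher by 1.42 ± 0.60, in groups that overlapped widely (5.31 to 9.00 against 4.43 to 8.19 log2 CPM).

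Sult1d1 (chromosome 5, 87554645 to 87569027, minus strand), a sulfotransferase for catechols and related small molecules, had log2 CPM values of 5.22, 7.11 and 7.84 in PV mice and of 8.09, 9.39 and 9.82 in WT mice (lowest, median, highest). The groups did not overlap. The difference was -2.15 ± 0.38 (log2, SE), or 4.45-fold lower, with an adjusted p of 0.116 in edgeR and 3.27e-05 in DESeq2. Of 11 kept genes of sulfate conjugation 9 were lower and 2 higher (median -0.27, and -0.16 without PV5), and besides Sult1d1 only Sult1a1, a phenol sulfotransferase, was lower at an unadjusted p under 0.05 (-0.82 ± 0.35). Their summed level was 319 to 501 CPM in PV mice and 559 to 1211 CPM in WT mice, without overlap, a sum that includes Sult1d1 itself.

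Hp, which encodes haptoglobin, a haemoglobin-binding secreted protein, had log2 CPM values of 3.86, 4.15 and 4.90 in PV mice and of 4.91, 6.29 and 7.56 in WT mice. The highest PV mouse, PV6, and the lowest WT mouse, WT5, almost touched. The difference was -2.17 ± 0.40 (log2, SE). Arg2, the mitochondrial arginase, gave -1.54 ± 0.29, from 4.1 to 5.75 log2 CPM in PV and 5.78 to 7.28 in WT mice. Hyal1, a lysosomal hyaluronidase, gave -1.53 ± 0.28, with WT3 (4.36 log2 CPM) within the PV range and the other WT mice above all PV mice. Krt23, an acidic keratin, gave -2.14 ± 0.45, where WT3 and WT5 (3.92 and 3.81 log2 CPM) lay among the PV mice and the other WT mice at 5.67 or more.

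With age as a covariate edgeR called 10 genes, 9 of them lower in PV. They included Sult1d1, Hyal1, Krt23, Arg2, Klf9, Klf15, Cxcl12 and Fhl1. The other two, named here after their values were seen, were the prostaglandin synthase Ptgs1, at -1.89 ± 0.30, and the mucin Muc13, higher by 1.10 ± 0.20. Among mice aged 4.0 to 6.3 months alone, Hyal1 was the single call, at -1.73 ± 0.20 and an adjusted p of 0.0117 in edgeR. The 2 PV mice aged 2.4 and the WT mice aged 7.4 and 9.0 have no counterpart of the other genotype at their age, so that genotype and age cannot be told apart there.

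Other genes among the 12 of lowest p in the lower direction had smaller differences, except Dab1. Cxcl12, a chemokine, gave -1.10 ± 0.23 and Adamts15, a matrix protease, -0.80 ± 0.15, both without overlap. PV values of Cxcl12 ran only from 3.47 to 3.86 log2 CPM, near the lowest level that the shallow mice can show. Dab1, an adaptor of the reelin pathway, gave -1.53 ± 0.35. Suox, the sulfite oxidase, gave -0.82 ± 0.17, Fhl1 -0.79 ± 0.18 and Klhdc7a -0.87 ± 0.21. Lrp2, the endocytic receptor megalin, had the largest fitted value among the genes named here, -3.84 ± 1.04, with an adjusted p of 0.374 in edgeR and 0.0245 in DESeq2. Its WT mice were divided. WT1, WT4 and WT7 had 8.74, 8.51 and 8.37 log2 CPM, whereas the other 5 WT mice lay between 3.39 and 4.46 and overlapped the PV mice at 2.56 to 4.42.

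Klk10, a secreted kallikrein-related peptidase, had log2 CPM values of 3.62, 4.11 and 4.78 in PV mice and of 2.90, 3.05 and 3.49 in WT mice. The groups did not overlap, although the value of PV2 was again a count of 1 and thus an upper bound. That count reads 3.86 in PV2, above all WT mice even if no signal was there. The difference was 1.19 ± 0.21 (log2, SE) with an adjusted p of 0.116 in edgeR. Klk11, a related peptidase, gave 1.99 ± 0.40, led by PV3 at 6.45, PV5 at 5.48 and PV1 at 5.19 log2 CPM against at most 3.75 in WT mice.

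Sprr2d, a cornified envelope precursor that estrogen also induces in the uterus, gave 2.28 ± 0.44. It was high in PV1, PV3 and PV4 (7.17, 6.93 and 6.31 log2 CPM), whereas PV5 and PV6 lay within the WT range of 3.29 to 4.35. Lypd2, a protein of the Ly6/uPAR family, gave 2.79 ± 0.64, which was 1.03 without PV5, the mouse at 7.94 log2 CPM, and 1.69 with age as a covariate. Mpzl2, an epithelial adhesion protein, gave 0.94 ± 0.21 without overlap, with only 4 counts in PV2. Of the 32 listed genes of stratified squamous epithelium only 12 were kept by the authors' detection filter. Of these, 10 were higher and 2 lower (median 0.47), 4 were higher at an unadjusted p under 0.05, and 0 passed the adjusted test.

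Those 4 were Krt15, Krt13, Sprr1a and Sfn. Krt15, a basal-layer keratin, had log2 CPM values of 3.20, 4.12 and 7.51 in PV mice and of 2.82, 3.56 and 3.94 in WT mice. PV3 stood far above the rest, and the difference of 1.96 ± 0.60 was 0.17 without that mouse. Within PV3, 1 region had a log2(Q3 + 1) value of 7.60 and the other 4.35, while no other PV region exceeded 4.65 and no WT region 3.70. Krt13 (0.81 ± 0.31) was 0.29 without PV6, and Sprr1a (1.24 ± 0.47) was 0.59 without PV1. Krt15 and Krt13 held only 98 and 88 counts over the 15 regions of PV1, where negative probes averaged 3.74 per region. In WT1 each held 24 over 4 regions, with negative probes at 2.89. Sfn, a 14-3-3 protein of keratinocytes, stayed between 0.89 and 1.43 with any mouse left out. At an unadjusted p under 0.05, 1 of the 12 members was higher with PV3 left out, 2 without PV1 and 6 without PV4, and the list median without PV3 was 0.23.

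Simple columnar genes had no list-wide lower level in PV. Of 15 kept members 11 were higher (median 0.24), among them the keratin Krt8 (0.61 ± 0.26) and the junction protein Cldn7 (0.61 ± 0.27). The median was 0.11 without PV6 and 0.56 with age as a covariate, Krt8 was 0.39 without PV6, and Cldn7 was 0.33 without PV1. Epcam gave 0.49 ± 0.26, from 6.98 to 9.16 log2 CPM in PV and 7.51 to 8.69 in WT mice. Fibroblast markers went the other way, with 12 of 12 lower (median -0.32), a median that was -0.16 without WT8 and -0.54 without PV6. Dcn, decorin, was below all WT mice in each PV mouse (5.02 to 6.56 against 6.70 to 7.54 log2 CPM), a difference of -0.94 ± 0.22 with an adjusted p of 0.322 in edgeR and 0.0325 in DESeq2. Pdgfra gave -0.63 ± 0.25. The part of captured stromal RNA in the other differences was not tested beyond the fit with the fibroblast level as a covariate, in which Klk10 was 1.16, Sult1d1 -2.05 and Hp -1.86. Other genes moved more in that fit, among them Hoxa10 from -0.99 to -0.37, Igf1 from -1.48 to -0.78 and Cxcl15 from -1.51 to -0.34.

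**Figure D2:**
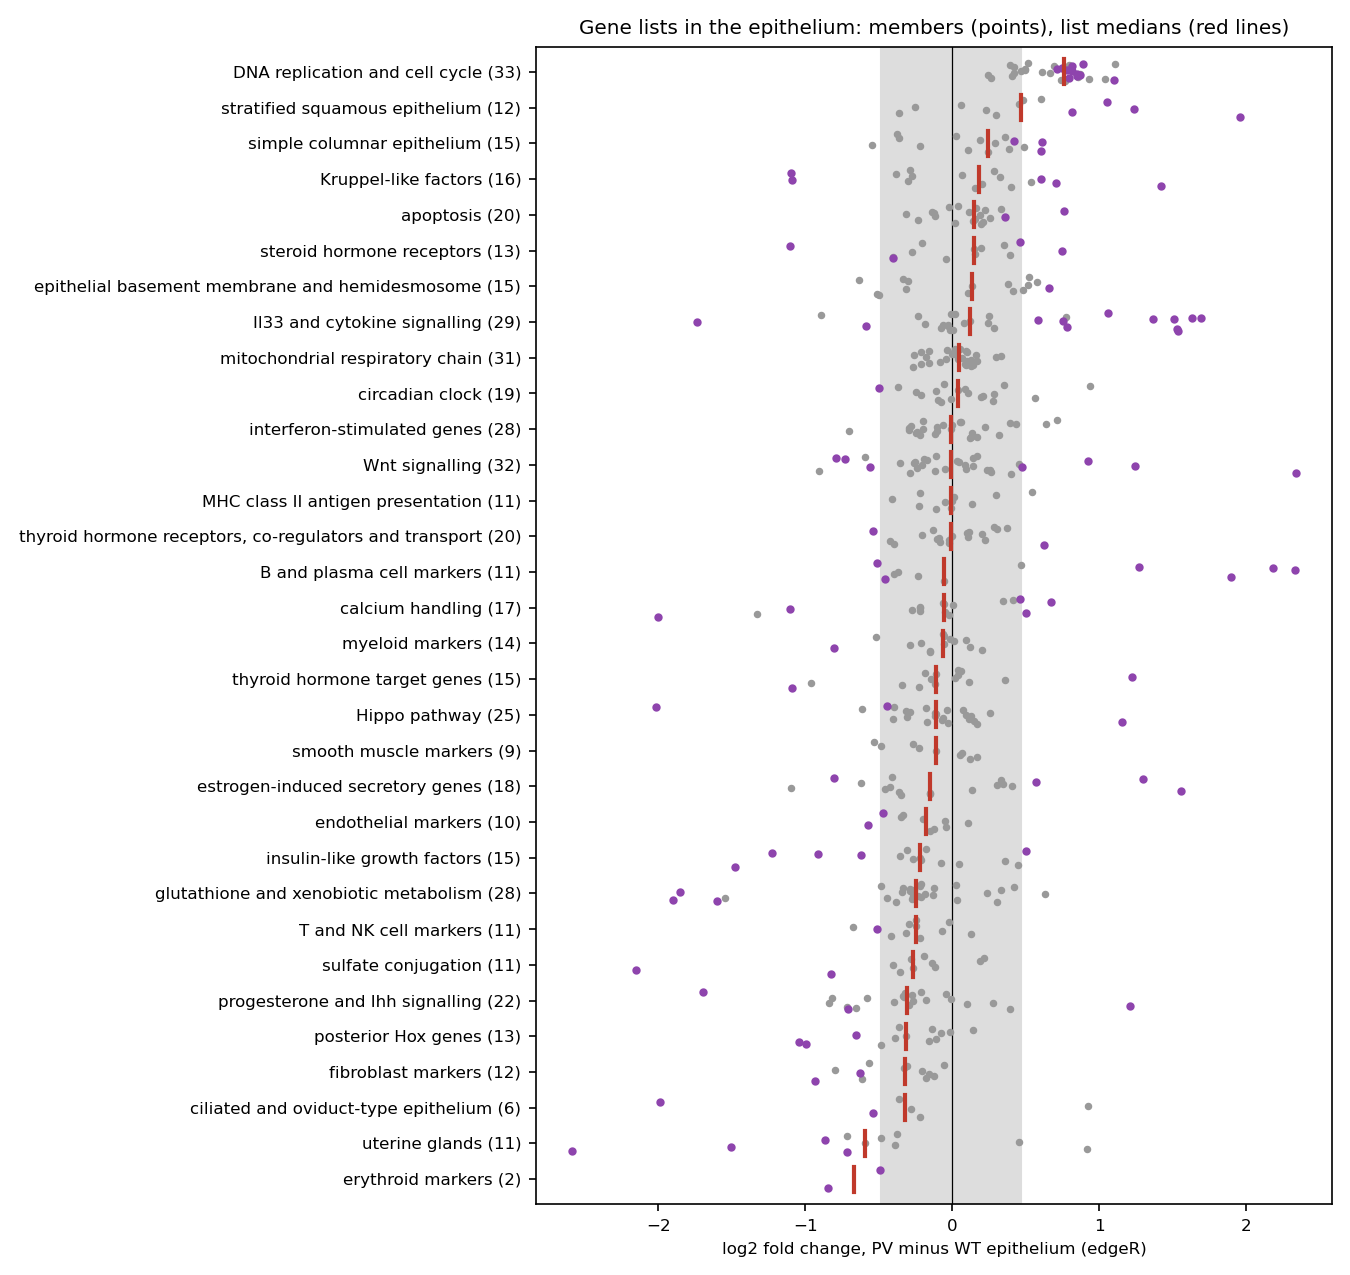
Log2 fold change (PV minus WT epithelium, edgeR) of each kept member of 32 gene lists, with the number kept in parentheses, list medians as red lines and members at an unadjusted p under 0.05 in purple. The grey band holds the middle 90% of all 14881 genes. All 33 members of the DNA replication and cell cycle list and 10 of 12 of the squamous list lie above 0, and all 12 fibroblast markers below it.

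The cell cycle list lay wholly on the higher side. All 33 kept members were higher in PV (median 0.76), 11 of them at an unadjusted p under 0.05, among them Birc5 (0.89 ± 0.35), Ccne2 (0.71 ± 0.30), Cdc6 (0.87 ± 0.36) and Gins2 (0.85 ± 0.38). The median rested on PV4. The mean log2 CPM of the list was 6.41 in PV4, 4.30 to 5.02 in the other PV mice and 3.91 to 5.25 in WT mice. Without PV4 the median was 0.15, 24 members were higher, and 0 passed an unadjusted p of 0.05. That last count was also 2 to 5 without WT1, WT2, WT3, WT5 or WT6, 17 without WT4 or WT8, 19 without PV3 and 24 without PV1. On the Q3 scale the median was 0.42, with age as a covariate 0.41 and with the fibroblast level 1.13, and in stroma it was -0.02. Cdkn1a, an inhibitor of the cell cycle, was higher as well, by 1.45 ± 0.29. The log2 CPM of Cdkn1a was 4.22, 5.03 and 6.14 in PV mice and 3.34, 3.84 and 4.81 in WT mice, and PV1, not PV4, was the highest. All 6 PV mice lay above the median of WT mice. For PV2 (2 counts) that was fixed in advance, since a count of 1 there already reads 3.86. Of 20 apoptosis genes 14 were higher (median 0.15, and 0.05 without PV1), beside 49.4% of all genes. At an unadjusted p under 0.05, 2 of them, Pmaip1 and Bid, were higher, beside 4.42% of all genes.

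**Figure D3:**
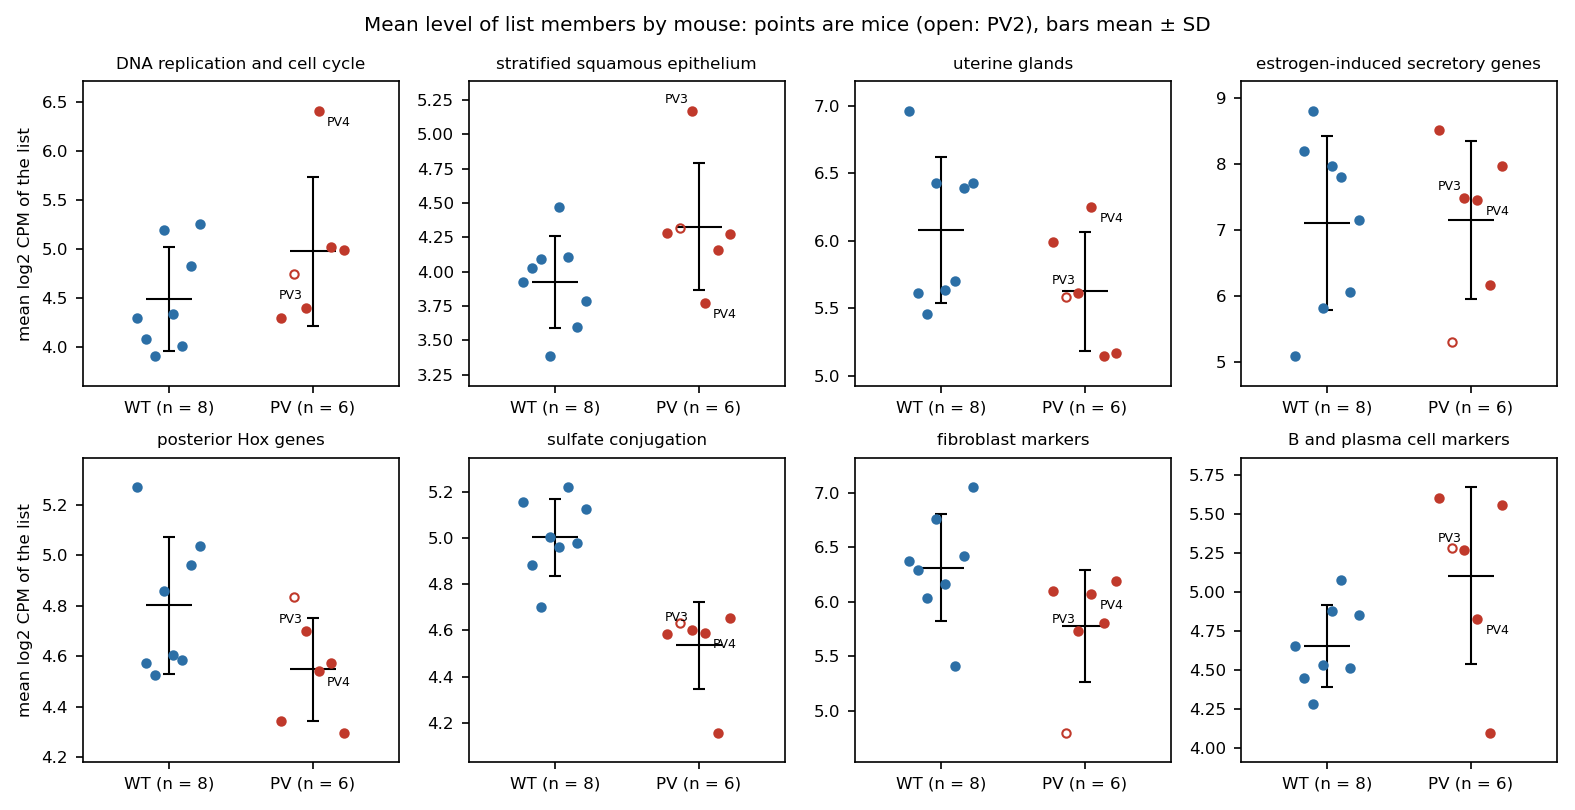
Mean log2 CPM of the kept members of 8 gene lists for each mouse, WT in blue and PV in red, with mean ± SD as black bars, PV2 open and PV3 and PV4 named. PV4 stands at 6.41 for DNA replication and cell cycle and PV3 at 5.17 for squamous genes. The sulfate conjugation means do not overlap, but they include Sult1d1 and come as close as 4.65 (PV6) and 4.70 (WT3). Whether they stay apart without Sult1d1 was not tested.

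Cytokine genes differed in both directions. Il33 (chromosome 19, 29925114 to 29960718, plus strand), an alarmin kept in the nuclei of barrier cells, had log2 CPM values of 3.86, 5.27 and 6.85 in PV mice and of 3.49, 4.1 and 4.96 in WT mice. PV3, PV5 and PV6 lay above all WT mice (5.96, 6.18 and 6.85), and the other PV mice lay within the WT range. The difference was 1.54 ± 0.40 (log2, SE), or 2.91-fold, with an adjusted p of 0.364 in edgeR, 0.0675 in DESeq2 and an exact permutation p of 0.045 before adjustment. It was 1.04 without PV6. Il18, another epithelial cytokine of the same family, lay lower in all PV mice (3.31 to 3.86 against 3.90 to 4.59 log2 CPM), at -0.59 ± 0.15. The highest of these PV values, 3.86, was that of PV2, which held only the count of 1 that stands for none. On the Q3 scale the groups overlapped for Il18, with PV2 and without it.

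Of 29 kept cytokine and signalling genes 10 were higher and 2 lower at an unadjusted p under 0.05 (median 0.12). Cxcl2, a neutrophil chemokine, gave 1.70 ± 0.49 and Il1a 1.53 ± 0.48, and both rested on PV1, without which they were 0.24 and 0.30. With PV1 left out, 2 members were higher at that level, and the list median was -0.07. With age as a covariate it was 0.44. Of 28 interferon-stimulated genes 13 were higher and 15 lower (median -0.01), and 0 passed an unadjusted p of 0.05. That split moved with single mice and with age. The number of higher members ran from 0 to 21 as single mice were left out, the median from -0.47 without PV1 to 0.18 without PV6, and with age as a covariate 24 of 28 were higher (median 0.34). Of 11 MHC class II genes 4 were higher, and 0 passed that level. Their median ran from -0.17 without PV4 to 0.05 without PV6.

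Immunoglobulin genes, which mark plasma cells rather than epithelium, had some of the largest higher values among the genes named here. Igha, the heavy chain of IgA, had log2 CPM values of 6.51, 8.29 and 10.17 in PV mice and of 4.23, 6.74 and 7.16 in WT mice. PV5 lay within the WT range and the other PV mice above it. The difference was 2.33 ± 0.50, or 5.04-fold, with an adjusted p of 0.186 in edgeR and 0.00233 in DESeq2. Jchain, which joins IgA dimers, gave 1.90 ± 0.37 and Igkc, the kappa light chain, 2.18 ± 0.51. Iglc1, a lambda chain, gave 1.27 ± 0.44, which was 0.32 without PV6. Of the other 7 kept B and plasma cell markers 6 were lower, 2 of them at an unadjusted p under 0.05, so that the list median was -0.05 with 5 higher and 6 lower. Igha, Jchain and Igkc were higher in PV stroma too, by 3.19 ± 1.03, 3.15 ± 0.82 and 2.99 ± 1.03 in that order. Stromal Igha reached 13.86 log2 CPM in PV1, and the part of stromal plasma cell RNA in the epithelial values was not tested.

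**Figure D4:**
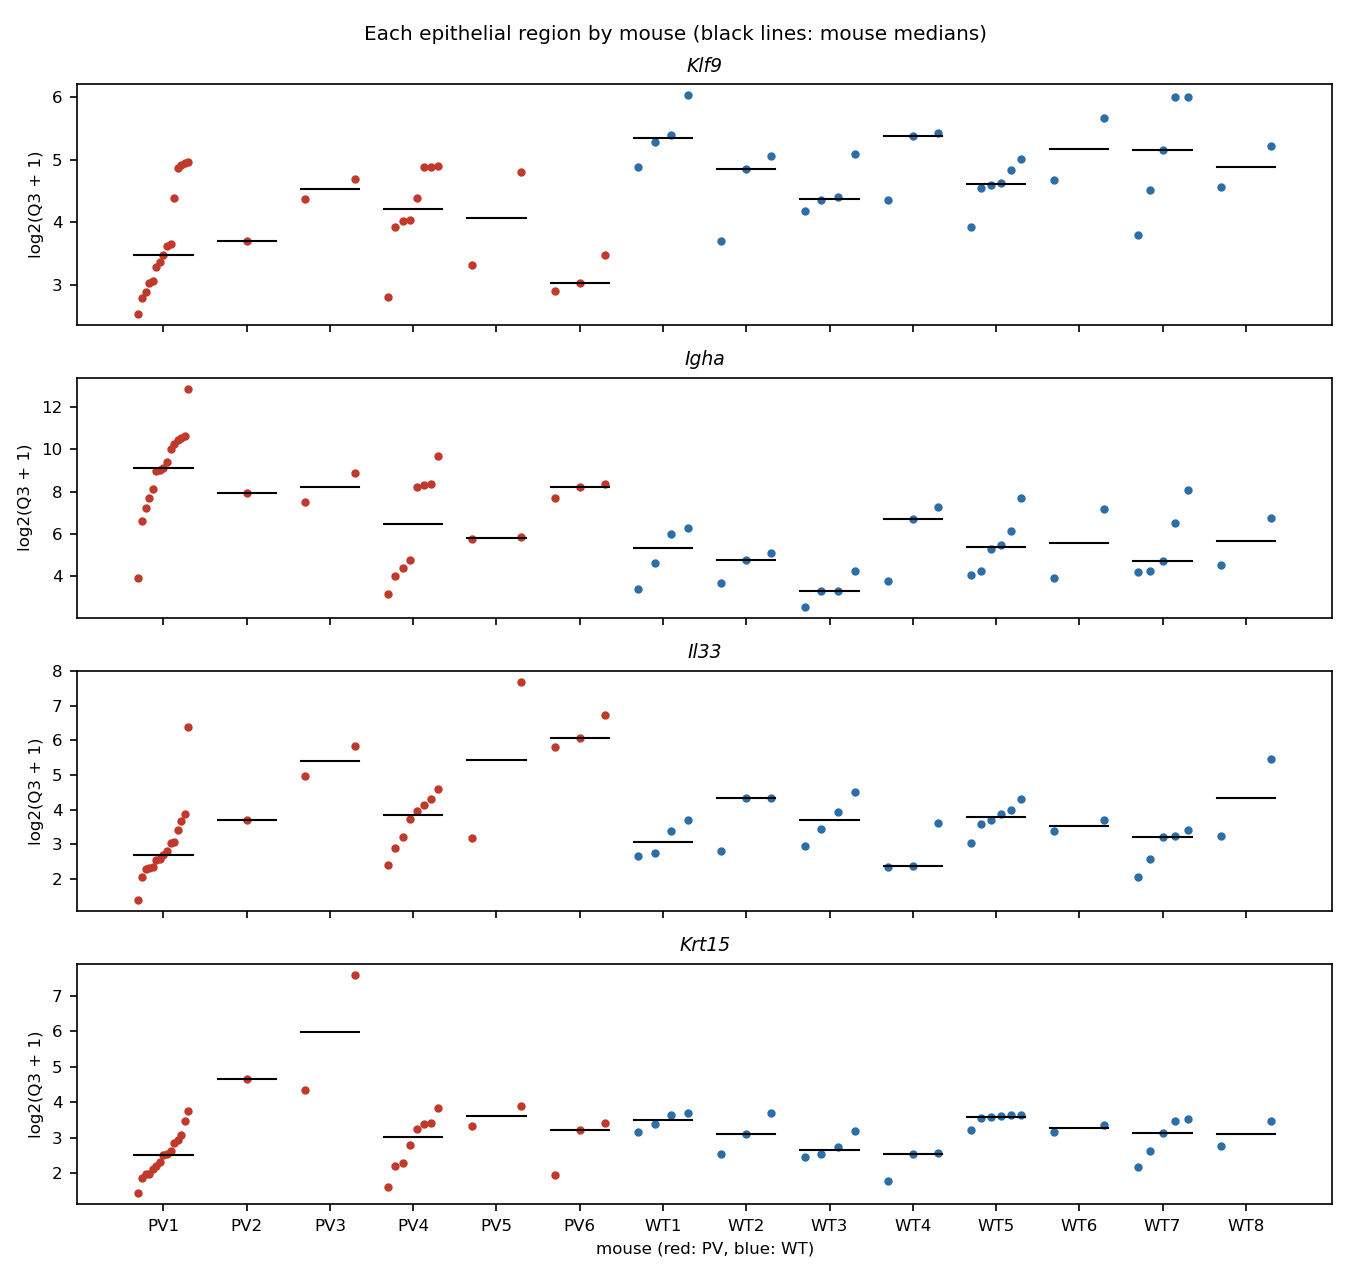
Log2(Q3 + 1) of Klf9, Igha, Il33 and Krt15 in each of the 60 epithelial regions, by mouse (red PV, blue WT), with mouse medians as black lines. Igha spans 3.92 to 12.86 over the 15 regions of PV1, and the highest Krt15 value, 7.60, is 1 region of PV3.

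Regions of the same mouse differed from each other more than mice did at the median gene. On the log2(Q3 + 1) scale the SD between regions of a mouse was 0.49 in PV and 0.40 in WT mice at the median gene, and differences between mice held 36.4% and 26.1% of the variance. With mice of at least 3 regions the PV share was 16.6%. Igha had a within-mouse SD of 2.07 in PV and 1.43 in WT mice. In PV4 its 8 regions ran from 3.17 to 9.65, with 4 at 4.76 or less and 4 at 8.20 or more. Klf9 ran from 2.54 to 4.96 over the regions of PV1 and from 3.80 to 6.00 over those of WT7, so that single regions of the genotypes overlapped where the mouse sums did not. Il33 was 3.17 in 1 region of PV5 and 7.70 in the other, and 5.80 to 6.72 in the 3 regions of PV6. Sult1d1 ran from 4.28 to 8.75 over the regions of PV1. As luminal and glandular epithelium share a label, the kind of epithelium in a region was not tested.

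Gland genes were mostly lower. Of 11 kept members 9 were lower and 2 higher (median -0.59), 4 of them lower at an unadjusted p under 0.05, a count that was 0 without WT1 and 1 without PV5. Foxa2, the transcription factor needed for gland formation, gave -0.72 ± 0.31, and all 6 PV mice lay below the median of WT mice. Cxcl15, a gland chemokine, gave -1.51 ± 0.68, which was -0.34 with the fibroblast covariate. Wfdc3 gave -0.87 ± 0.41, which was -0.41 without WT1. Spink1, a protease inhibitor, gave -2.59 ± 1.03, which was -0.56 without WT1, the mouse at 8.35 log2 CPM. WT mice were uneven in the gland list, with means of 6.39 to 6.96 log2 CPM in WT1, WT4, WT7 and WT8 and 5.46 to 5.70 in the other 4. PV means ran from 5.14 to 6.25. The oviduct-type glycoprotein Ovgp1 was lower, at -1.99 ± 0.56, which was -1.59 without WT7. It held 482 counts in WT7 and 183 in WT4, against 16 to 108 in the other WT mice.

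The hormone-response lists divided the same WT mice, but in opposite directions. Mean log2 CPM of the estrogen-induced genes was 5.09 to 7.16 in WT1, WT4, WT7 and WT8 and 7.81 to 8.81 in the other WT mice. For the progesterone and Ihh genes it was 5.19 to 5.60 and 4.63 to 4.84 in that order. PV means ran from 5.31 to 8.52 and from 4.71 to 5.14. Estrogen-induced secretory genes summed to 909 to 41095 CPM in WT mice and 1340 to 24899 CPM in PV mice, with 8 of 18 members higher and 10 lower (median -0.15). The direction of that list was not settled. Its median was -0.60 without PV1 and 0.39 without WT3, with 5 to 13 members higher as single mice were left out. With age as a covariate 14 of 18 were higher (median 1.04), and at ages 4.0 to 6.3 the median was 0.91. Higher members were Wfdc18 (1.30 ± 0.49), Slpi (0.57 ± 0.24) and Sprr2b (1.55 ± 0.71), and Lyz2 was lower (-0.80 ± 0.37), each at an unadjusted p under 0.05. Sprr2b was 0.71 without PV1, 2.33 without WT3 and 3.19 with age as a covariate. Of 22 kept progesterone and Ihh signalling genes 18 were lower (median -0.31). Ihh gave -0.71 ± 0.31 and the kinase Sgk1 -1.70 ± 0.61, and with the fibroblast covariate they were -0.33 and -1.11. Sgk1 was -1.20 without WT7 and -1.36 without WT4. Those mice held 1068 and 481 counts of Sgk1, against 43 to 153 in the other WT mice. Msx2, a homeobox factor of the epithelium, went the other way by 1.21 ± 0.31, and all 6 PV mice lay above the median of WT mice. It was 0.79 with age as a covariate. Among nuclear receptors, the retinoid receptor Rarg was higher (0.46 ± 0.19), and Vdr (-1.10 ± 0.34, and -0.73 with age) and Esr2 (-0.41 ± 0.18) were lower. Counts of Vdr and Esr2 were low, at 65 and 95 over the 15 regions of PV1, where negative probes averaged 3.74 per region. For both, PV2 held the count of 1 that stands for none.

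Posterior Hox genes, which pattern the female tract, were lower in 12 of 13 kept members (median -0.31, and -0.20 without WT7). Hoxa10 gave -0.99 ± 0.43, Hoxa11 -1.04 ± 0.41 and Hoxd11 -0.65 ± 0.25. With the fibroblast covariate they were -0.37, -0.51 and -0.44. Hoxa10 was 3.86 to 5.41 log2 CPM in PV mice, while WT1, WT4, WT7 and WT8 were at 6.06 or more and the other WT mice at 4.14 to 4.51. Wnt7a, a ligand made by the luminal epithelium, was higher by 2.34 ± 0.57 with an adjusted p of 0.339 in edgeR and 0.00592 in DESeq2. It reached 8.45, 8.22, 7.31 and 7.03 log2 CPM in PV2, PV5, PV4 and PV3 but 3.62 in PV6, against 3.41 to 6.05 in WT mice. With age as a covariate it was 1.41. Of 32 kept Wnt genes 16 were higher and 16 lower. Tcf7, a Wnt transcription factor, gave 0.92 ± 0.32 and the antagonist Sfrp2 -0.79 ± 0.29.

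Among Hippo pathway genes the 2 with the lowest p went apart. Tead2, a DNA-binding partner of YAP, had log2 CPM values of 5.41, 5.96 and 6.49 in PV mice and of 4.62, 4.82 and 5.49 in WT mice, where WT8 alone overlapped. The difference was 1.16 ± 0.19 with an adjusted p of 0.116 in edgeR and 0.000926 in DESeq2. Ccn2, a secreted target of YAP, was lower, at -2.02 ± 0.51, from 3.1 to 4.94 log2 CPM in PV and 4.86 to 7.82 in WT mice, and at -1.30 with age as a covariate. Of 25 kept members 8 were higher and 17 lower (median -0.11), and Axl was also lower (-0.44 ± 0.20, and -0.25 with the fibroblast covariate).

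Of 28 kept genes of glutathione and xenobiotic metabolism 21 were lower (median -0.25, and -0.09 with the fibroblast covariate), led by Gpx3, a secreted peroxidase (-1.86 ± 0.52), Gstm2 (-1.90 ± 0.66) and Gstm1 (-1.60 ± 0.69). Gpx3 ran from 2.86 to 6.51 log2 CPM in PV and 5.12 to 8.47 in WT mice. Gstm1 and Gstm2 were high in WT1, WT4, WT7 and WT8 alone. In those mice Gstm1 lay at 9.73 to 10.71 log2 CPM, against 6.35 to 7.66 in the other 4 WT mice and 6.50 to 8.77 in PV mice. Gstm2 was divided likewise, with 8.87 to 10.36, 6.07 to 6.77 and 6.14 to 7.54 in that order. With the fibroblast covariate Gstm1 was -0.63 and Gstm2 -0.94. Of 15 kept insulin-like growth factor genes 11 were lower (median -0.22), with Igf1 at -1.48 ± 0.54, Igfbp7 at -1.23 ± 0.35 and Igfbp6 at -0.92 ± 0.31. With the fibroblast covariate Igf1 was -0.78, Igfbp7 -0.94 and Igfbp6 -0.62, and the list median was -0.38 without PV3. On the Q3 scale that median was -0.02, with 7 of 15 members higher. In calcium handling S100g, calbindin-D9k, gave -2.0 ± 0.71 and S100a10 0.67 ± 0.24 (1.09 with the fibroblast covariate), with a list median of -0.06 that was 0.04 without PV4. The 31 respiratory chain genes had a median of 0.04 (from -0.27 to 0.33), which was -0.08 without PV6 and 0.13 without PV3, and 0 of them passed an unadjusted p of 0.05.

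T and NK cell markers were lower in 10 of 11 members (median -0.25), with Nkg7 at -0.51 ± 0.22, and endothelial markers in 9 of 10 (median -0.18), with Emcn at -0.57 ± 0.22. The former median was -0.11 without PV4, and the latter -0.09 without WT1 and -0.32 without PV3. On the Q3 scale the former was -0.04 with 4 of 11 members higher, and the latter 0.02 with 5 of 10 higher. Counts were low, since Cd3g held 88 over the 15 regions of PV1, where negative probes averaged 3.74 per region. Myeloid markers had a median of -0.06, which ran from -0.40 without PV4 to 0.01 without PV5. That of smooth muscle markers was -0.11 and ran from -0.30 without PV6 to 0.03 without PV4. Both kept erythroid markers were lower (median -0.67). Clock genes had 10 of 19 higher (median 0.04, from -0.07 without PV5 to 0.17 without WT6), and basement membrane genes 9 of 15 higher (median 0.14, from 0.07 without WT2 to 0.24 without PV5), with Lamb3 at 0.66 ± 0.30. For the low markers, PV2 at its value for 1 count sat near or above the other mice.

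The remaining genes were DESeq2 calls or among the 12 of lowest p in the higher direction. Peg10, an imprinted gene of retrotransposon origin, gave 2.12 ± 0.42, with 6.56, 6.73 and 5.25 log2 CPM in PV1, PV3 and PV4 against at most 4.15 in WT mice. Chil1, a chitinase-like secreted protein, gave 2.24 ± 0.54 and was high in the same 3 mice (8.28, 7.70 and 5.73), while PV5 and PV6 lay at 3.93 and 4.29. Cavin1, a coat protein of caveolae, gave 1.32 ± 0.30, Meis2, a homeobox factor, 1.33 ± 0.30, and Kctd15 1.03 ± 0.24. Atp6v0a2, a proton pump subunit, gave 0.66 ± 0.18.

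Finally the genotype difference in epithelium was set against that in stroma of the same animals. Both compartments were measured on the first plate in 13 mice, all but WT6, and the difference of the differences was fitted with the mouse as a block. No gene differed between compartments at an adjusted p under 0.05 in edgeR (0% of genes, lowest adjusted p 0.579), with 1066 genes at an unadjusted p under 0.05 and 0 calls by limma's voom. Klf9 was lower in PV stroma too, at -1.31 ± 0.28, and Sult1d1 at -1.76 ± 0.34. Their epithelial and stromal differences lay 0.25 ± 0.29 and -0.38 ± 0.44 apart. Stromal Sult1d1 was low, at 3.59 to 4.67 log2 CPM in PV and 4.57 to 6.65 in WT mice. The part of captured epithelial RNA in these stromal values was not tested.

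Other genes had values near 0 in the stroma. Il33 gave -0.20 ± 0.28 there, a gap of 1.39 ± 0.36 from the epithelium with an unadjusted p of 0.0013 in edgeR and an adjusted p of 0.579. Hp gave -0.26 ± 0.28 in stroma (gap -1.71 ± 0.46), Krt23 -0.18 ± 0.26 (gap -1.59 ± 0.40) and Klk11 0.18 ± 0.28 (gap 1.59 ± 0.34). Ccn2 had the opposite sign, 0.65 ± 0.28 in stroma, a gap of -2.39 ± 0.44. Cavin1 gave -0.32 ± 0.26 in stroma and a gap of 1.39 ± 0.31. None of these gaps passed the adjusted test. In stroma of both genotypes Il33 lay at only 3.64 to 4.72 log2 CPM and Hp at 3.22 to 5.11. Krt23 lay at 3.44 to 4.86 and Klk11 at 3.08 to 4.55. At such low levels a value near 0 cannot show that the genotypes are alike in stroma.

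**Figure D5:**
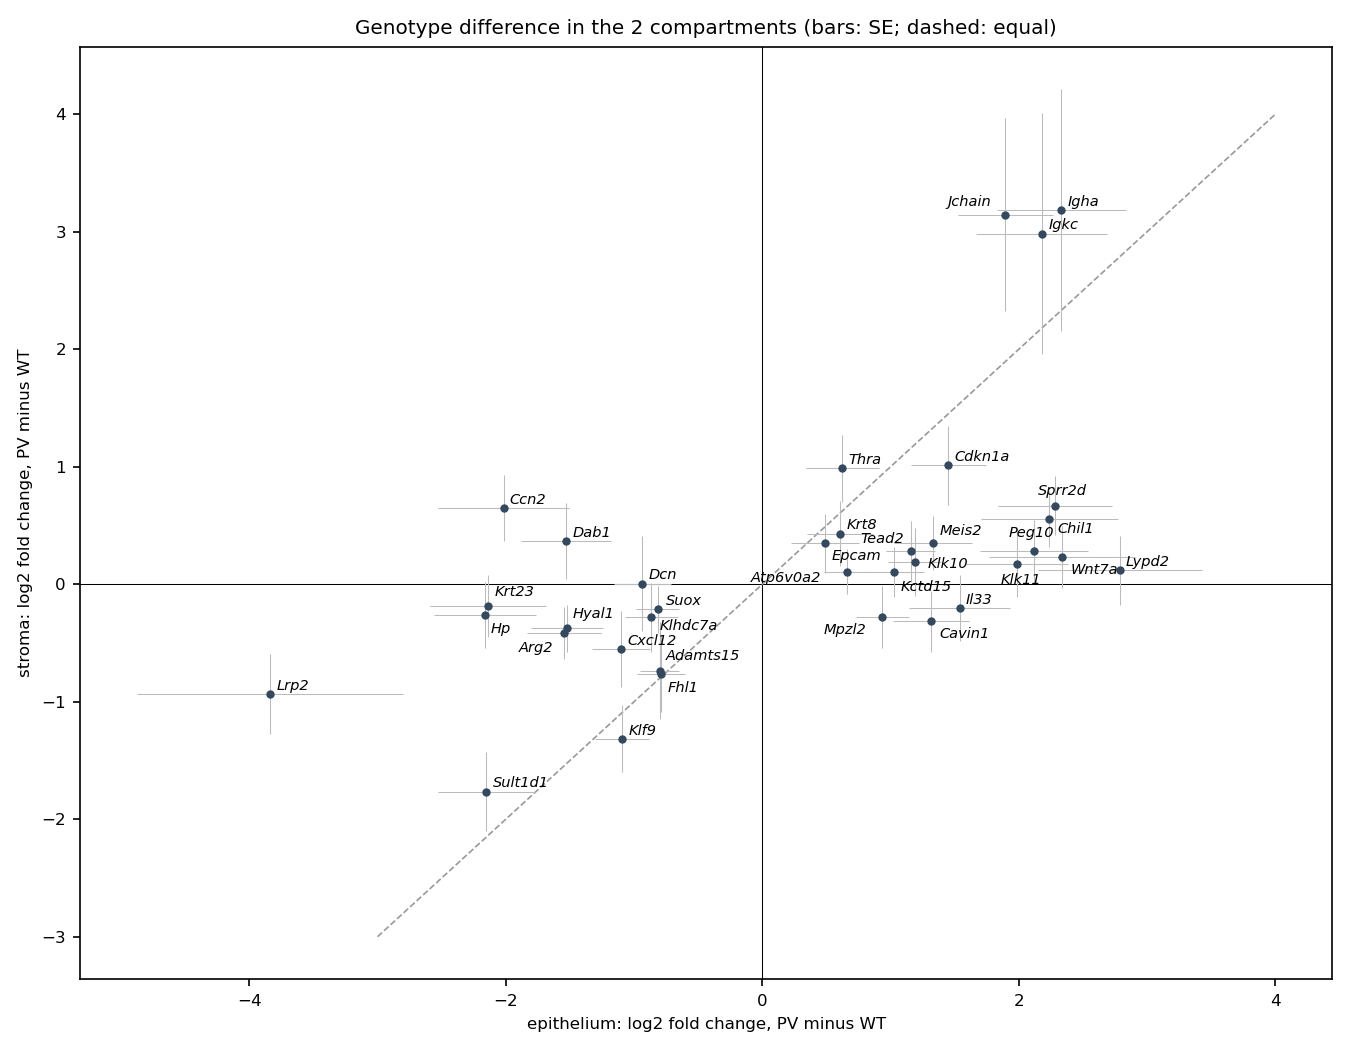
Log2 fold change (PV minus WT, edgeR) in epithelium on the x axis and in stroma on the y axis for the named genes, with SE bars and the line of equal values dashed. Klf9 and Sult1d1 lie near the line, Il33, Hp and Krt23 near 0 on the stromal axis, and the immunoglobulin genes Igha, Igkc and Jchain highest on the stromal axis.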

How the data were processed

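Regions of formalin-fixed uterus were profiled with a whole-transcriptome probe panel (GeoMx). The deposited values are expected counts made by the authors' GeoMx pipeline, in which 1 stands for 0. The deposited Q3 table holds signal values, the counts divided by an upper-quartile (Q3) factor of each region. mm10 and R 4.1.2 are named in the submitters' processing notes. Locations are those of GENCODE vM21 on GRCm38, since probe positions were not used here. Counts were rounded, and summed per mouse over first-plate epithelium. The 14881 genes of the authors' filtered table were tested with edgeR 4.0.16 (quasi-likelihood, TMM, two-sided, R 4.3.3), with DESeq2 1.42.0 and limma 3.58.1 as alternatives and an adjusted p threshold of 0.05. DESeq2 gave no adjusted p for 2909 genes. Each edgeR SE was derived from the test, as the size of the log2 fold change divided by the square root of the quasi-likelihood F statistic. It therefore restates that test and is not a separate estimate. Log2 CPM used a prior count of 2. Permutation tests were exact. Region totals ran from 61691 to 3130397 (median 832371). Separate mice are the replicates. Named genes were 6 chosen genes, the 12 of lowest p in each direction, up to 4 of lowest p per list, those called by DESeq2 and those without overlap, of which some are not reported here. The members and lists were chosen with earlier results of these data known. Fits were tested on simulated data. Left out were the second plate and the per-region probe files. Alternatives were other scalings, filters, region-level fits, age and fibroblast covariates, an age window and leaving out each mouse. DESeq2 with each mouse left out and the 2 further counts of genes without overlap were chosen after seeing the data.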

Additional observations from a re-analysis of the deposited data

Results flagged for a closer look

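Single mice stood apart from the rest of their group in 11 of the 194 groups of values looked at for the genes named above. Chance alone sets apart about 1 in 20 groups, and the number found lies near that share. The test was Dixon's gap of the highest or lowest mouse to its nearest neighbour, relative to the range of the group, in log2 CPM. Among PV mice, PV1 was far above the others for Bcl3 (7.78) and far below them for Tcf7 (3.86). PV2, the mouse with 1 thin region, lay far below for Atp6v0a2 (5.41, from 3 counts) and for Gpd2 (3.86, its value for a count of 1). PV3 lay far below for Dcn (5.02), and PV4 far above for Ccne2 (5.58) and Hoxd11 (4.58). Among WT mice, WT1 lay far above the others for Spink1 (8.35), Wfdc3 (5.79) and Emcn (4.55), and WT8 for Tead2 (5.49).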

How the results depend on the processing

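The count of genes past the edgeR threshold was 0 and stayed 0 with upper-quartile scaling, with and without a count filter, with a robust prior, after negative-probe subtraction, with limma on Q3 means or voom weights, and with the fibroblast covariate. It was 28 with DESeq2, 10 with age as a covariate, 1 (Hyal1) at ages 4.0 to 6.3, 1 (Pam, named after its value was seen) with limma over single regions and a block for the mouse, and 3585 in a likelihood ratio test that takes regions as independent. Leaving out single mice gave 0 to 6 calls, and for DESeq2 16 to 80. Genes without overlap numbered 52 without PV2 and 14 on Q3 means. Klf9 passed the threshold with DESeq2 (-1.07), with age (-1.25) and over independent regions (-0.93), where Thra (0.41) and Il33 (1.20) passed too. Bcl3 ran from -0.27 (without PV1) to 1.53 (without WT3). The steroid receptor median (0.15) was -0.088 with voom weights, -0.13 with the region block, -0.14 over independent regions and -0.070 at ages 4.0 to 6.3, and -0.080 to 0.22 with single mice left out. The ciliated median ran from -0.65 to -0.22 that way. The basement membrane median was 0.33 with the fibroblast covariate, and the cytokine median 0.49 at ages 4.0 to 6.3. The cause of these shifts was not tested. No paired analysis was possible because the replicate numbers in the labels number regions, and the 2 genotypes share no mouse. The shallow PV2 limits what low genes can show.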
